A study of Mus musculus with 8 samples.

Results

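The MAPK phosphatases and Sprouty proteins are the brakes of growth factor and stress signaling, and their mRNAs were read here in mouse epidermis of wild type mice, of mice without Tcl1 and of mice with a TCL1 transgene in its place. The genes taken were Dusp1, Dusp4, Dusp5, Dusp6, Dusp7, Dusp10, Dusp16, Spry1, Spry2 and Spry4, by the gene symbol of each probe set, which gave 13 of the 22690 probe sets of the array table. These stand for 8 of the 10 genes, 5 phosphatases and 3 Sprouty genes, while Dusp4 and Dusp5 were not analysed here. Each array held RNA of an epidermal sheet, freed from the dermis with dispase, from skin taken 3 days after depilation, which starts hair regrowth. The 8 arrays came from 2 wild type C57bl/6 mice (WT), 3 mice without Tcl1 (Tcl1-/-) and 3 K14-TCL1 mice. K14-TCL1 mice carry human TCL1A under the keratin 14 promoter, active in basal keratinocytes (KCs), and lack mouse Tcl1 like the Tcl1-/- mice, so neither mutant group expresses the mouse gene. The study describes the mice as adult.

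A dual-specificity phosphatase removes phosphate from both the tyrosine and the threonine that switch a MAP kinase on. Most of these genes are transcribed in response to the kinases that their products switch off, so that their mRNA belongs to a negative feedback loop. Sprouty proteins act further upstream, between the receptor tyrosine kinases and RAS, and in several tissues they are also made in response to the signal they restrain. In epidermis, ERK is known mainly for proliferation and survival, and p38 and JNK mainly for differentiation and stress responses.

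The series as a whole was even in scale. Array medians lay between 6.52 and 6.55 on the log2 scale, arrays of 1 genotype correlated at 0.998 to 0.999 and those of different genotypes at 0.995 to 0.996, and all 8 measured KC markers passed the filter on low intensities, while 5 of 8 dermal fibroblast, 5 of 8 endothelial and 4 of 7 muscle markers did not. Tcl1 itself was read at intensities of 32.2, 33.3 and 32.1 in Tcl1-/-, 35.8, 30.6 and 30.7 in K14-TCL1 and 31.1 and 29.8 in WT, near the low end of the scale in all arrays, so its probe set does not check the labels. Of the 9731 genes tested with limma, 26.6% were called in Tcl1-/- against WT (14.4% higher and 12.2% lower), 21.5% in K14-TCL1 against WT (11.7% and 9.84%) and 26.6% in Tcl1-/- against K14-TCL1 (13.9% and 12.7%), a call being an adjusted p under 0.05.

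Upstream sequence is shown for Dusp1 and Dusp6, the phosphatase genes whose level differed between all 3 genotypes, in opposite directions. Both runs, from the RefSeq promoter table (GRCm38.p6), are the 250 bases before the annotated start site, read 5′ to 3′ on the gene's strand, and they lie at chr17:26508473-26508722 (minus strand) for Dusp1 and chr10:99262981-99263230 (plus strand) for Dusp6. Capitals mark matches to TGACGT, the core of the cyclic AMP response element (CRE), in Dusp1, and to CCAAT in Dusp6, on either strand.
Dusp1: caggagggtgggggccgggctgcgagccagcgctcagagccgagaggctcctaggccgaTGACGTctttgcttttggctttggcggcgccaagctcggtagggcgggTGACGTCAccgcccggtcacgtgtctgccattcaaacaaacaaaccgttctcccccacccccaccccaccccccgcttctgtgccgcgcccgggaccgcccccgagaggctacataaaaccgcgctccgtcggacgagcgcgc
Dusp6: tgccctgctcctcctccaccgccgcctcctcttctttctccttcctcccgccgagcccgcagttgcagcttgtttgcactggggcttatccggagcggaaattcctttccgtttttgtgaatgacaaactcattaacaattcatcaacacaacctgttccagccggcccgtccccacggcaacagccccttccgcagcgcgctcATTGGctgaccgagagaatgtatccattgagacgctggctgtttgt

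The Dusp1 window holds the core at positions -191 to -186 and, as part of the complete palindrome TGACGTCA, at -143 to -138 and on the other strand at -141 to -136, with -1 as the last base before the start site. The core, searched on both strands, was found in 6.47% and the palindrome in 1.55% of all 32851 windows of this length. Among the 7 members with a window, only that of Dusp1 held the core. The window of Fos, an immediate early gene like Dusp1, held it once, at -66 to -61. The search for AP-1 sites (TGANTCA, 6.75% of windows), for CCGGAA, a core bound by ETS factors (12%), for the CArG box of serum response factor (1.47%) and for TATAAA (12.4%) found none in the 7 windows. CCAAT, found in 33.8% of all windows, was matched once in Dusp6 (-46 to -42), Dusp7, Dusp16 and Spry1 and at 3 places in Dusp10. The window of Dusp16 lies inside the annotated gene and that of Dusp7 reaches into it, since the start site of the table is not the outermost one of either gene. These matches describe letters of the reference and are no measure of binding.

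Dusp1 was raised in both mutant genotypes, and more without the transgene. It encodes the inducible nuclear phosphatase that inactivates p38 and JNK and, to a lesser degree, ERK, and it is itself an immediate early gene. Its intensities were 2179.9, 2268 and 2238 in Tcl1-/-, 1517, 1537 and 1513 in K14-TCL1 and 686 and 679 in WT. No array of one genotype overlapped those of another, and the lowest Tcl1-/- array stood well above the highest K14-TCL1 array. The log2 difference from WT was 1.71 ± 0.035 (± SE, as for all log2 differences here) in Tcl1-/-, or 3.26-fold, and 1.16 ± 0.035 in K14-TCL1, or 2.23-fold. Between the mutants, Tcl1-/- was higher by 0.55 ± 0.031, or 1.46-fold. By size of difference, Dusp1 ranked 19 of 9731 genes in Tcl1-/- against WT, 37 in K14-TCL1 against WT and 147 in Tcl1-/- against K14-TCL1. The adjusted p from limma was at most 1.54e-05 over these 3 comparisons.

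On the way from WT to Tcl1-/-, the K14-TCL1 mean of Dusp1 stood at 67.8% of the log2 distance. Under the 19 alternatives of processing, the Dusp1 difference from WT in Tcl1-/- stayed between 1.68 and 1.72, and that in K14-TCL1 between 1.14 and 1.16. In bulk tissue, more cells that express a gene and more RNA per cell cannot be told apart. Most markers of Langerhans cells rose in the same order as Dusp1: of 8, 7 were higher and none lower in Tcl1-/- than in WT, and 6 were higher and 1 lower in K14-TCL1 than in WT. Cd207 was higher in Tcl1-/- but not separated from WT in K14-TCL1, with 0.17 and 0.0023 against WT (adjusted p = 0.0238 and 0.979). Mfge8 did not follow that order. It was the lower one in K14-TCL1 (-0.29) and gave -0.12 in Tcl1-/-, which did not pass. The list includes the antigen presentation genes Cd74, H2-Aa, H2-Ab1 and H2-Eb1. The summed intensity of the 8 was 11843 to 12367 in Tcl1-/-, 9989.9 to 10049.5 in K14-TCL1 and 8959 to 9286 in WT. Sebocyte markers did likewise, with 6 of 6 higher in Tcl1-/- and 3 of 6 in K14-TCL1, and sums of 15695 to 16027, 13147 to 13349 and 12147 to 12229. The part of either cell type in the Dusp1 values was not tested.

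**Figure D1:**
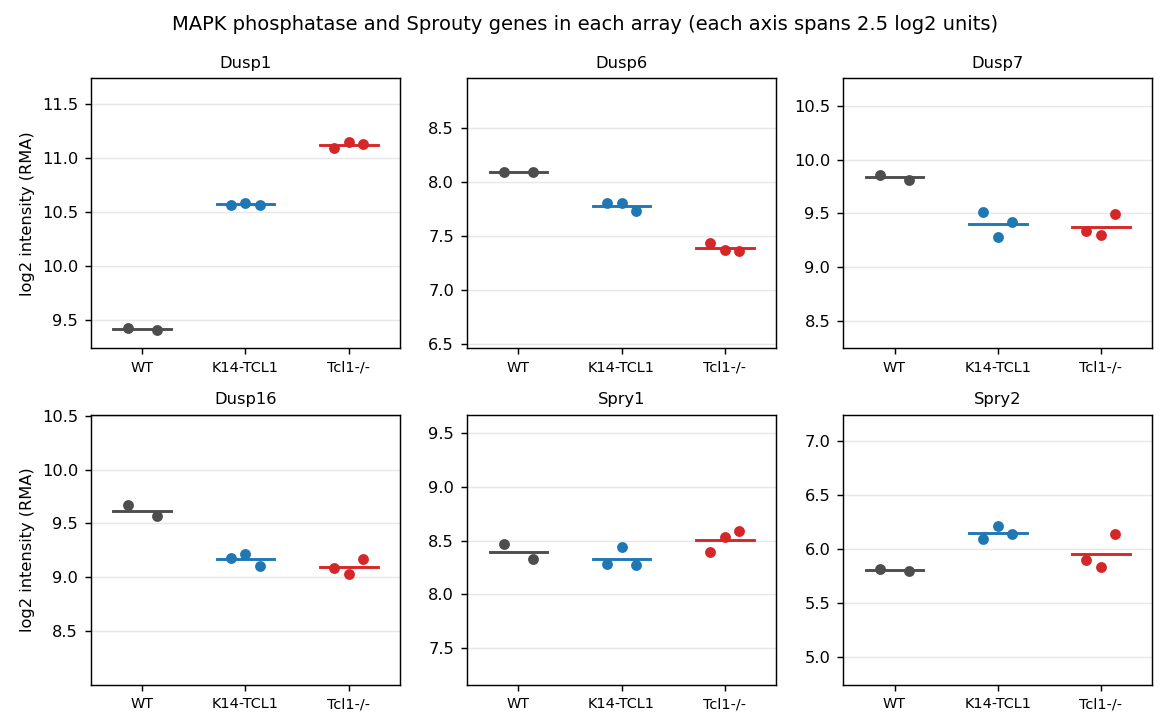
Log2 intensity (RMA, vertical axis) of the 6 tested genes in each array, by genotype on the horizontal axis, with a point for an array and a line for the genotype mean. Dusp1 runs from 9.41 to 11.15 with no overlap of genotypes, Dusp6 steps down from WT over K14-TCL1 to Tcl1-/-, Dusp7 and Dusp16 are lower in both mutants than in WT, and the Spry1 genotypes overlap.

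The phosphatases of the cytoplasm that act on ERK, Dusp6 and Dusp7, were lower in both mutants than in WT. Dusp6 binds ERK with high selectivity, and its transcription is a common readout of ERK activity, which mRNA arrays do not measure. By Western blot of KC protein, the study reports p38 phosphorylation as raised in Tcl1-/- and partly restored to the WT level in K14-TCL1. It reports ERK and JNK phosphorylation as unaffected in Tcl1-/- and enhanced in K14-TCL1 against WT. The Dusp6 mRNA, lower in both mutants, did not show the pattern reported for ERK. Its intensities were 173, 165 and 165 in Tcl1-/-, 224, 224 and 212 in K14-TCL1 and 273 and 272 in WT. The 3 genotypes formed separate steps, in the reverse order of Dusp1 and with the WT arrays almost alike. Against WT the log2 difference was -0.71 ± 0.042 in Tcl1-/- (adjusted p = 1.28e-05), which is 0.613 of the WT level, and -0.31 ± 0.042 in K14-TCL1 (adjusted p = 0.00156), or 0.806 of it. Tcl1-/- was lower than K14-TCL1 by a log2 difference of -0.39 ± 0.037 (adjusted p = 2.63e-04). With 44.0% of the distance from WT to Tcl1-/-, the K14-TCL1 mean of Dusp6 lay a little nearer to WT.

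Every alternative in which Dusp6 was fitted kept it on the same side of the threshold in the 3 comparisons, with values of -0.73 to -0.66, -0.33 to -0.28 and -0.42 to -0.36. It did not pass the fold filter of the methods' criteria. The summed intensity of dermal fibroblast markers fell in the same order, at 308 to 319.7 in WT, 286 to 290.1 in K14-TCL1 and 242 to 244 in Tcl1-/-. Of the 8, only 3 passed the filter, and 1 of these, Fbln1, was called, lower in both mutants (-0.83 in Tcl1-/- and -0.25 in K14-TCL1). The others tested did not follow that order. Against WT, Col1a2 gave 0.20 in Tcl1-/- and 0.12 in K14-TCL1, and Dcn gave -0.13 and -0.22. The part of fibroblasts in the Dusp6 values was not tested.

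Dusp7, a close relative of Dusp6 that also dephosphorylates ERK, was read by 3 probe sets. The brightest, which stands for the gene, had intensities of 646, 630.1 and 722 in Tcl1-/-, 730.5, 621 and 683 in K14-TCL1 and 929 and 900.4 in WT. Both mutants lay below both WT arrays and overlapped each other. The log2 difference from WT was -0.46 ± 0.078 in Tcl1-/- (adjusted p = 0.00350) and -0.43 ± 0.078 in K14-TCL1 (adjusted p = 0.00610), or 0.727 and 0.740 of the WT level. Between Tcl1-/- and K14-TCL1 it was -0.026 ± 0.070 (adjusted p = 0.820). The 95% interval of -0.19 to 0.13 does not exclude differences of up to about that size. Without WT replicate 1, Dusp7 missed the threshold in K14-TCL1 against WT (-0.41, adjusted p = 0.0508).

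The other 2 Dusp7 probe sets moved in the same way. The one of the _x_at kind, whose suffix warns that some of its probes may bind other transcripts, read 516, 506 and 530.3 in Tcl1-/-, 582, 522 and 551 in K14-TCL1 and 775 and 713 in WT. The dimmest read 98.1, 107 and 109 in Tcl1-/-, 114, 103 and 108 in K14-TCL1 and 156 and 144 in WT. In a fit over all 15372 probe sets past the filter, where 22.7% (12% higher and 10.7% lower), 17.9% (9.02% and 8.87%) and 23% (12.7% and 10.3%) were called in the 3 comparisons, their differences from WT were -0.52 ± 0.058 and -0.52 ± 0.065 in Tcl1-/- and -0.43 ± 0.058 and -0.46 ± 0.065 in K14-TCL1, with adjusted p of at most 0.00262. Both kept their calls against WT when any 1 array was left out. The 3 probe sets read 1 gene in the same RNA and are not replicates of each other.

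**Figure D2:**
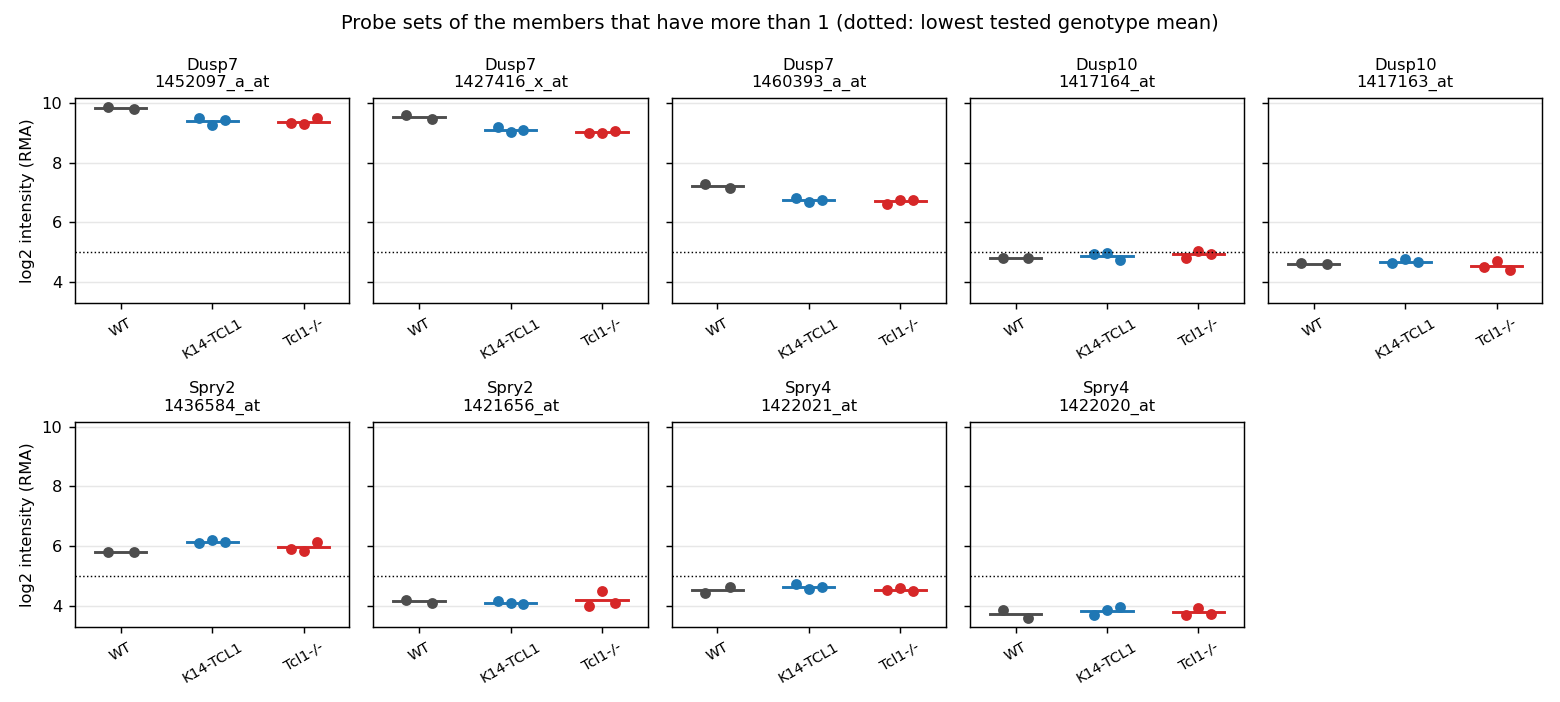
Log2 intensity (RMA, vertical axis) in each array of the 9 probe sets of Dusp7, Dusp10, Spry2 and Spry4, by genotype, with a line for the genotype mean. The 3 Dusp7 probe sets lie above the dotted filter level of 5 with both mutants under WT, whereas those of Dusp10 and Spry4 and 1 of Spry2 have genotype means below it.

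Of the phosphatases that prefer JNK and p38, Dusp16 was lower in both mutants and Dusp10 was too dim to be tested. Dusp16 encodes a phosphatase that shuttles between nucleus and cytoplasm. It read 544, 525 and 576 in Tcl1-/-, 580.2, 595 and 552 in K14-TCL1 and 815 and 758 in WT. Every mutant array was below every WT array, and the 2 mutant groups overlapped. The log2 difference from WT was -0.52 ± 0.056 in Tcl1-/- (adjusted p = 3.19e-04), or 0.697 of the WT level, and -0.45 ± 0.056 in K14-TCL1 (adjusted p = 9.96e-04), or 0.732 of it. Tcl1-/- and K14-TCL1 differed by -0.071 ± 0.050 (adjusted p = 0.340), with a 95% interval from -0.19 to 0.044. The K14-TCL1 mean stood at 86.4% of the log2 distance from WT to Tcl1-/- for Dusp16 and at 94.4% for Dusp7, whereas the K14-TCL1 levels of Dusp1 and Dusp6 differed from both other genotypes. Whether these shares differ between the genes was not tested.

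Dusp10 was read by probe sets with intensities of 21.3 to 33.2 over all 8 arrays, and neither reached a genotype mean of 5 on the log2 scale. In a fit of all 13201 genes without that filter, its log2 difference was 0.13 ± 0.088 in Tcl1-/- against WT and 0.077 ± 0.088 in K14-TCL1 against WT (adjusted p = 0.367 and 0.627), with overlapping arrays.

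**Figure D3:**
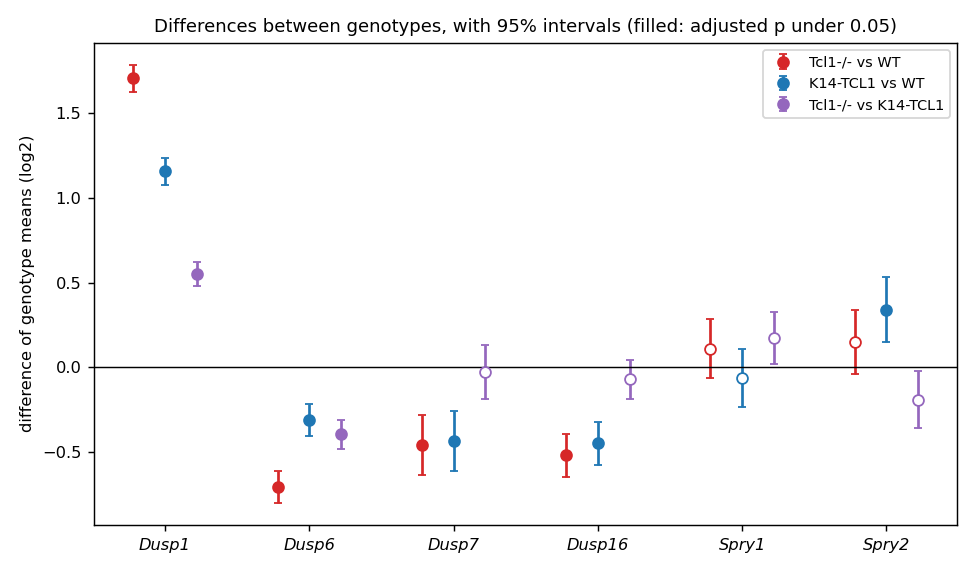
Log2 differences of genotype means (vertical axis) of the 6 tested genes, with 95% intervals from limma and a filled symbol where the adjusted p is under 0.05. Dusp1 stands alone above 0.5 in all 3 comparisons, while Dusp6, Dusp7 and Dusp16 are below 0 against WT, from -0.71 to -0.31.

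Of the Sprouty genes, Spry2 was higher in K14-TCL1 than in WT, Spry1 passed in no comparison and Spry4 was too dim to be tested. Spry1, an inhibitor of receptor tyrosine kinase signaling, read 337, 370.4 and 384 in Tcl1-/-, 312, 347 and 309 in K14-TCL1 and 353 and 320.5 in WT. All 3 groups overlapped. Its log2 differences were 0.11 ± 0.075 in Tcl1-/- against WT, -0.064 ± 0.075 in K14-TCL1 against WT and 0.17 ± 0.067 in Tcl1-/- against K14-TCL1, and none passed (adjusted p = 0.322, 0.583 and 0.0902). The 95% intervals of the differences from WT, -0.062 to 0.28 and -0.24 to 0.11, do not show equal levels. The third comparison passed when the prior variance followed the mean intensity (adjusted p = 0.0381) or without K14-TCL1 replicate 2 (0.23, adjusted p = 0.0412).

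Spry2, which in mouse and human cells is both an inhibitor of RAS signaling and a regulator of receptor degradation, read 59.6, 56.9 and 70.2 in Tcl1-/-, 68.2, 74.1 and 70.1 in K14-TCL1 and 56.2 and 55.6 in WT. The K14-TCL1 arrays were all above WT, and 1 Tcl1-/- array reached their level. K14-TCL1 was higher than WT by 0.34 ± 0.083 (adjusted p = 0.0215), or 1.27-fold. Tcl1-/- against WT gave 0.15 ± 0.083 (adjusted p = 0.224) although the arrays do not overlap, and Tcl1-/- against K14-TCL1 -0.19 ± 0.074 (adjusted p = 0.0905). The K14-TCL1 call was lost without K14-TCL1 replicate 2 (0.31, adjusted p = 0.0510), without WT replicate 1 (0.35, adjusted p = 0.0989) and without WT replicate 2 (0.33, adjusted p = 0.104). Without Tcl1-/- replicate 3, the high array of that group, Tcl1-/- was lower than K14-TCL1 by a log2 difference of -0.28 (adjusted p = 0.00878). A second, dimmer probe set of Spry2 read 16 to 22.7 in Tcl1-/-, 16.6 to 17.8 in K14-TCL1 and 17.1 and 18.3 in WT, so it did not set K14-TCL1 above WT, and with the mean of both probe sets the difference was 0.14 (adjusted p = 0.127). Summed T cell markers followed the order of Spry2: 1326 to 1338 in K14-TCL1, 1172.5 to 1186 in Tcl1-/- and 1012 to 1029 in WT. Of 7, 5 were called higher in K14-TCL1 and 4 in Tcl1-/- than in WT, and none was called lower. Against WT, Cd2 gave -0.11 in Tcl1-/- and -0.073 in K14-TCL1, and Xcl1 gave -0.10 and 0.038, which did not pass. Melanocyte marker sums were also lowest in WT, at 313, beside 343 to 358 in K14-TCL1 and 332 to 352 in Tcl1-/-. Of 4 tested melanocyte markers, 1 was called higher in each mutant and none lower. The part of either cell type in the Spry2 values was not tested.

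Spry4, which also restrains RAS signaling, read 12.1 to 26.5 over its 2 probe sets and all arrays, and it was not tested. Without the filter, its brighter probe set gave 0.0044 ± 0.075 in Tcl1-/- and 0.10 ± 0.075 in K14-TCL1, both against WT (adjusted p = 0.980 and 0.413).

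Counted together, 6 of the 8 measured members passed the filter. Of these, 1 was higher, 3 were lower and 2 did not pass in Tcl1-/- against WT. In K14-TCL1 against WT, 2 were higher, 3 lower and 1 did not pass. Tcl1-/- against K14-TCL1 gave 1 higher (Dusp1), 1 lower (Dusp6) and 4 that did not pass. Over all tested genes the shares called were 26.6%, 21.5% and 26.6%. The median log2 difference of the 6 was -0.17, -0.19 and -0.048, beside 0.0085, 0.010 and 5.57e-05 over all genes tested. The 2 comparisons against WT share the WT arrays. Under the criteria of the study's methods (an unadjusted p under 0.001 and at least 1.4-fold from the median on 20% of arrays), Dusp1 was the only member to pass the fold filter.

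The genes most like the members over the 8 arrays, by the root mean square difference of centred log2 values, were Nfia (0.13), Mt4 (0.14) and Wdfy1 (0.15) for Dusp1. For Dusp6 they were Palld (0.051), the actin bundling gene Fscn1 (0.056) and the protease gene Klk6 (0.057), and for Dusp16 Cyp51 of sterol synthesis (0.040), Noct (0.051) and Bace2 (0.060). Nfia, Mt4 and Wdfy1 had log2 differences from WT of 1.52, 1.37 and 1.70 in Tcl1-/- and 1.08, 1.00 and 1.23 in K14-TCL1. None of them is on the list of immediate early genes used here. Palld, Fscn1 and Klk6 had log2 differences from WT of -0.76, -0.80 and -0.68 in Tcl1-/- and -0.27, -0.30 and -0.21 in K14-TCL1. The members with genotype means less than 0.5 apart were not matched.

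Immediate early genes, the class to which Dusp1 belongs, rose with it in many cases. Of 22 tested, 14 were higher, none lower and 8 did not pass in Tcl1-/- against WT, with a median log2 difference of 0.35. In K14-TCL1 against WT, 9 were higher, 4 lower and 9 did not pass (median 0.085), and in Tcl1-/- against K14-TCL1, 12 were higher and 10 did not pass (median 0.23). The shares called over all tested genes were 26.6%, 21.5% and 26.6% in these 3 comparisons. Fos, a subunit of AP-1, had intensities of 2439, 2528 and 2561 in Tcl1-/-, 1809, 1916 and 1792 in K14-TCL1 and 301 and 329.8 in WT, with differences from WT of 2.99 ± 0.052 and 2.54 ± 0.052. Like Dusp1 it was highest in every Tcl1-/- array and lowest in both WT arrays. Fosb, another AP-1 subunit, differed from WT by 1.44 and 1.30, the growth inhibitory gene Btg2 by 1.10 and 0.73 and Zfp36, whose product destabilizes mRNA, by 0.57 and 0.29, in Tcl1-/- and K14-TCL1. Gadd45a, Gadd45b, Klf4 and Ier5 were the 4 that were lower in K14-TCL1, from -0.37 to -0.13, and this count fell to 1 without WT replicate 1 and to 2 without WT replicate 2.

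Target genes of ERK outside the members were split. Of 13 tested, 1 was higher, 5 were lower and 7 did not pass in Tcl1-/- against WT, and 1, 2 and 10 in K14-TCL1 against WT. Over all tested genes, 26.6% and 21.5% were called in these comparisons, and 26.6% in Tcl1-/- against K14-TCL1. In K14-TCL1 against WT the 1 higher gene became 3 without K14-TCL1 replicate 3 and 2 without Tcl1-/- replicate 1 or 2, and the 2 lower ones became 1 when any array except K14-TCL1 replicate 2 or WT replicate 1 was left out. Egr1, also an immediate early gene, was the higher one, with differences from WT of 1.01 ± 0.042 in Tcl1-/- and 0.52 ± 0.042 in K14-TCL1. The AP-1 subunit gene Fosl1 was lower in both, by log2 differences of -0.86 ± 0.051 and -0.57 ± 0.051, as Dusp6 was. Areg and Hbegf, ligands of the EGF receptor, were lower in Tcl1-/-, at -0.58 ± 0.10 and -0.33 ± 0.045, and gave 0.28 ± 0.10 and 0.055 ± 0.045 in K14-TCL1, which did not pass. Etv4 and Phlda1 were the other lower ones in Tcl1-/-, at -0.25 and -0.33, and the 5 lower genes became 3 without WT replicate 1. In Tcl1-/- against K14-TCL1, 4 were higher and 5 lower, with Areg at -0.86 ± 0.091, and the 4 became 2 without Tcl1-/- replicate 1 or 3 or K14-TCL1 replicate 3.

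Among 14 other tested inhibitors of the route from receptor to ERK, 4 were higher and none lower in Tcl1-/- against WT, where 14.4% of all genes were higher and 12.2% lower, and 1 was higher and none lower in K14-TCL1 against WT, beside 11.7% and 9.84% of all genes. The 4 called, of 14, are near the share of 26.6% over all genes. Lrig1, which promotes degradation of EGF receptors and marks a stem cell population of mouse skin, was higher in Tcl1-/- by 0.73 ± 0.068 than in WT and by 0.52 ± 0.060 than in K14-TCL1. Dab2ip, a RAS GTPase activating protein gene, was at 0.21 ± 0.039, Dok1 at 0.25 ± 0.077 and Socs3, a brake on cytokine receptors, at 0.20 ± 0.056 against WT, and Socs3 was the one higher in K14-TCL1 (0.26 ± 0.056). The 4 became 2 without Tcl1-/- replicate 1 or 3, and Socs3 was not called in K14-TCL1 without WT replicate 1. Spred1, a relative of the Sprouty genes, was lower in Tcl1-/- than in K14-TCL1 (-0.22 ± 0.054), a call that was lost without Tcl1-/- replicate 2. Of 11 further dual-specificity phosphatase genes, 1 was higher in Tcl1-/- and 2 in K14-TCL1 than in WT, and none lower, beside 26.6% and 21.5% of all genes called in either direction. Dusp2, like Dusp1 an inducible nuclear phosphatase, was the one higher in both, by 0.38 ± 0.067 and 0.30 ± 0.067, and Dusp19 was the other one in K14-TCL1 (0.19 ± 0.049). None was called in K14-TCL1 against WT without either WT replicate.

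**Figure D4:**
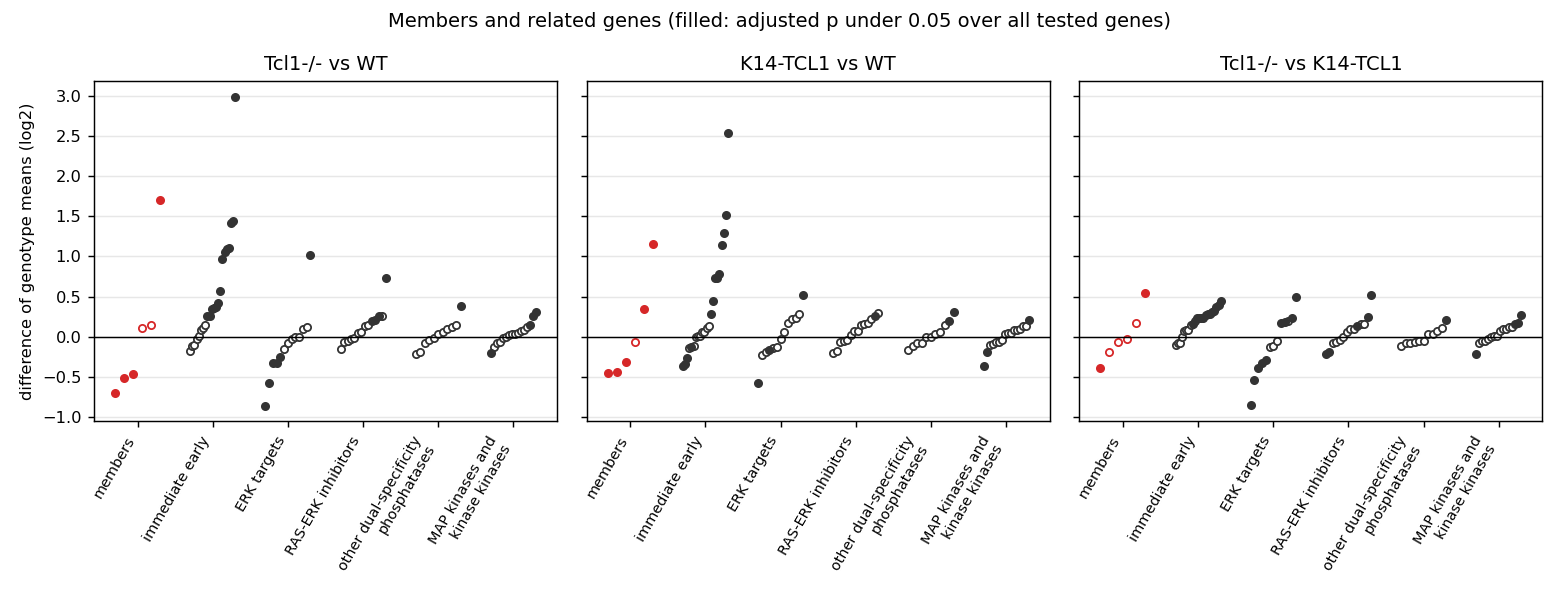
Log2 differences of genotype means (vertical axis) of the 6 tested members and of the genes of 5 related lists, a point for a gene, filled where the adjusted p is under 0.05, in 1 panel for each comparison. Immediate early genes lie mostly above 0 in Tcl1-/- against WT, with 14 of 22 called higher, and the ERK target genes lie on both sides of 0.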

How the data were processed

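The intensity values deposited by the authors are RMA summaries of Affymetrix arrays (background correction, quantile normalization and probe set summary, per the labels; version not given in the sources used here) on the linear scale, and were taken to log2 here without a pseudocount. The table was equal to the values of the series matrix. They hold no counts, so precision is set by how many arrays there are. Left out were 64 control probe sets, 492 with no gene symbol and 578 with more than 1. Of the other 21556 names, 19478 were current in RefSeq (GRCm38.p6), 1633 were updated and 445 kept. Each gene was represented by its brightest probe set on average, and genes whose highest genotype mean was under 5 (log2) were not tested. limma 3.58.1 (R 4.3.3) fitted a mean for each genotype over all 8 arrays, with 5 residual and 3.32 prior degrees of freedom and Benjamini-Hochberg adjustment over 9731 genes. The fit was tested on simulated data. The p-values rest on 2 or 3 animals in a group and cannot separate genotype from strain, litter or preparation. The methods give 3 chips for each genotype, and the arrays analysed here include 2 of WT.

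Members and gene lists were chosen with earlier results of these data known. Named genes are all members, up to 4 genes of a list by smallest p over the genotypes, and the 3 genes nearest in profile to each member whose genotype means span at least 0.5. Other genes named to complete a count of 5 or fewer (Dok1, Etv4, Phlda1, Gadd45a, Gadd45b, Klf4 and Ier5) were named after their values were seen. The same holds for Cd207, Mfge8, Col1a2, Dcn, Cd2, Xcl1, Map2k6, Mapk3 and Hspa1b. Alternatives were other filters (none, or 6 on the log2 scale), probe set choices, 16 added before log2, centring, variance models, fits of 2 genotypes, a block on the replicate number, the methods' criteria and each array left out. Same-numbered arrays of different genotypes deviated from their group means with correlations of -0.036 to 0.091. Sequences were read from RefSeq tables, in which 7 of 8 members had a window. Python 3.11.15 and matplotlib 3.10.9 made the figures.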

Additional observations from a re-analysis of the deposited data

How the results depend on the processing

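The calls of Dusp1, Dusp6 and Dusp16 kept their direction and side of the threshold in every comparison and alternative in which the gene was fitted. The criteria of the methods called only Dusp1 in each comparison, so the counts of lower members fell to 0 in all 3 comparisons and that of higher ones to 1 in K14-TCL1 against WT. In this last comparison the count of higher members, 2 with Spry2, was also 1 with the mean of all probe sets of a gene and with the replicate block (Spry2 0.30, adjusted p = 0.0598). The labels share numbers between genotypes without saying that they mark litters, so the block is no paired analysis. Among arrays of other genotypes, 5 of 8 arrays were closest to one of their own number, but none of the 7 same-number pairs correlated over 0.1. The block changed no other call of a member. When the prior variance depended on intensity, 2 members were higher in Tcl1-/- than in K14-TCL1. Leaving out single arrays gave 1 higher and 3 lower members in Tcl1-/- against WT, 1 to 2 higher and 2 to 3 lower in K14-TCL1 against WT and 1 to 2 of each in Tcl1-/- against K14-TCL1. Differences that did not pass turned sign for Spry1 in K14-TCL1 against WT (0.0065 without WT replicate 1, range -0.13 to 0.0065) and for Dusp7 in Tcl1-/- against K14-TCL1 (0.013 without Tcl1-/- replicate 2 and 0.029 without K14-TCL1 replicate 1, range -0.087 to 0.029). The probe sets of Dusp10 and Spry4 and 1 of Spry2 lay under the filter level, which limits what can be seen of these genes.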

Other observations

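The kinases that these phosphatases and Sprouty proteins restrain were called about as often as genes at large. Of 16 tested MAP kinase and MAP kinase kinase genes, 3 were higher, 1 was lower and 12 did not pass in Tcl1-/- against WT, and 1, 2 and 13 in K14-TCL1 against WT, beside 26.6% and 21.5% of all genes called. Map2k4, which encodes a kinase that activates JNK, was lower than WT in both, by log2 differences of -0.20 ± 0.043 (Tcl1-/-) and -0.37 ± 0.043 (K14-TCL1), and the Tcl1-/- call was lost without WT replicate 1 or WT replicate 2. Map2k1, which encodes the ERK activator MEK1, was higher in Tcl1-/- (0.26 ± 0.047, adjusted p = 0.00470) and gave 0.13 ± 0.047 in K14-TCL1 (adjusted p = 0.0775). Also higher in Tcl1-/- were Map2k6, which encodes an activator of p38 (0.31 ± 0.084, adjusted p = 0.0266), and Mapk3, which encodes an ERK (0.14 ± 0.042, adjusted p = 0.0384). In K14-TCL1 they gave 0.047 ± 0.084 and 0.049 ± 0.042, which did not pass. Mapk8, which encodes a JNK, was higher in K14-TCL1 than in WT (0.21 ± 0.054), and Map2k3, which encodes an activator of p38, was lower there (-0.19 ± 0.042). The Mapk8 call was lost without K14-TCL1 replicate 1 or 2, without the filter on low intensities, with the mean of all probe sets of a gene, with the replicate block and in the fit of the 2 genotypes alone. The 2 lower genes in K14-TCL1 became 1 without WT replicate 1. The 3 higher genes in Tcl1-/- against WT became 1 when any Tcl1-/- or WT array was left out, 2 without K14-TCL1 replicate 1 and 3 without either other K14-TCL1 array.

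Heat shock genes, a stress class other than the immediate early genes, did not rise as a group: of 10 tested, 1 was higher, 4 were lower and 5 did not pass in Tcl1-/- against WT, with a median of -0.11, and 1, 1 and 8 in K14-TCL1 against WT. Beside these stand 26.6% and 21.5% of all genes called. Hsph1 was at -0.31 ± 0.058 and Hspe1 at -0.16 ± 0.042 in Tcl1-/-, while Hspb1, a small heat shock protein gene of differentiating KCs, was at 0.16 ± 0.035. Hspa1a, an inducible gene of the class, gave -0.018 ± 0.035 in Tcl1-/- (adjusted p = 0.756) and -0.16 ± 0.035 in K14-TCL1 (adjusted p = 0.0143), and the latter call was lost without WT replicate 1 or WT replicate 2. Its close relative Hspa1b was lower in Tcl1-/- (-0.14 ± 0.043, adjusted p = 0.0483) and gave -0.099 ± 0.043 in K14-TCL1 (adjusted p = 0.140). The 1 higher gene in K14-TCL1, Hspe1 (0.14 ± 0.042), lost its call when any array except K14-TCL1 replicate 3 was left out, and Hspb1 was not called in Tcl1-/- without WT replicate 2. The 4 lower genes in Tcl1-/- against WT became 1 without Tcl1-/- replicate 2 or either WT array and 2 without Tcl1-/- replicate 1 or 3.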
